A study of Mus musculus with 16 samples.

Results

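The 41 genes described here encode the machinery of cell division and DNA replication, and they were chosen by name from the 23306 genes of the deposited table. All 41 were found by their Ensembl identifiers, and all 41 were among the 16509 genes with enough reads to be tested. They fall into 3 classes by the phase in which their products act: 20 mitotic genes, 13 S-phase genes and a class of 8 genes made up of the G1 cyclins, the G1 kinases and their inhibitors. The rule picks them by name alone, but the names were proposed with results of the same data known. Counts of members past a threshold are therefore given beside the same count over all tested genes.

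RNA was sequenced from organoids grown from mouse endometrial epithelium, the lining of the uterus, in 4 groups of 4 libraries. Control organoids came from mice with floxed Tgfbr2 alleles and no Cre (Tgfbr2 FF), and the conditional knockout (cKO) organoids came from Tgfbr2 PRcre+ mice, in which Cre is driven from the progesterone receptor locus. All organoids were grown for 2 days and then received either vehicle throughout 6 days or hormone, first 2 days of 10 nM estradiol (E2) and then 4 days of 10 nM E2 together with MPA (medroxyprogesterone acetate, a progestin) at 1 µM. The libraries are M1 to M4 (control, vehicle), M5 to M8 (cKO, vehicle), M9 to M12 (control, E2/MPA) and M13 to M16 (cKO, E2/MPA). Cre is present in the cKO groups only, so loss of Tgfbr2 and presence of Cre cannot be told apart. E2 alone was not given for the whole period, so the parts of E2 and MPA cannot be told apart either. Whether each library stands for its own animal is not in the labels, and the p-values then measure only a spread between libraries that may be technical.

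Cells enter the cycle when D-type cyclins with Cdk4 or Cdk6 phosphorylate the retinoblastoma proteins and free the E2F factors, which turn on the genes needed to copy DNA. In S phase the MCM helicase unwinds the DNA, Pcna holds the polymerases on it, and ribonucleotide reductase and thymidylate synthase supply the deoxynucleotides. Later the MuvB complex, with Foxm1, turns on the mitotic genes that build the spindle and trigger chromosome segregation, while in resting cells the DREAM complex, which holds Rbl2 (p130), keeps both sets off. In the uterus, estrogen is known as a mitogen of the epithelium and progesterone as its antagonist, and TGF-beta type II receptor (Tgfbr2) signalling is known to restrain growth of many epithelia.

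The libraries held 14372111 to 20016836 reads in the counted genes, of which 1.00% to 1.52% were mitochondrial. Values are normalized read counts, that is, reads divided by a size factor per library, with no correction for gene length, so levels are compared between libraries and not between genes. Normalized counts of Tgfbr2 ran from 4852 to 8054 in control and 3520 to 5439 in cKO organoids given vehicle; with hormone they ran from 4103 to 7794 and from 3568 to 5526, so whole-gene counts overlapped between the genotypes. The highest Tgfbr2 value in each group was that of M4, M8, M12 or M16. All 8 epithelial markers were high in every library, with a mean log2(value + 1) of 13.70 to 14.30. Stromal markers differed between libraries: the mean log2(value + 1) of 12 such genes was 10.75 in M4, 9.88 in M8, 10.83 in M12 and 10.62 in M16, 9.75 in M9, 8.80 in M1 and 5.60 to 7.62 in the 10 others. The mean over 8 macrophage markers was highest in M12 (10.33) and M4 (9.63) and lay between 6.46 and 8.41 elsewhere. In bulk RNA, fewer cells of a type and less RNA per cell cannot be told apart.

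Both subunits of ribonucleotide reductase rose with E2/MPA in both genotypes. Across all 41 members, 2 rose and 3 fell in control organoids, and 2 rose and 0 fell in cKO organoids. Over all tested genes the background was 5.39% rising and 3.51% falling in control organoids and 2.71% rising and 1.48% falling in cKO organoids. A gene was called when its adjusted p was under 0.05 in a limma fit over all 16 libraries, with Benjamini-Hochberg adjustment over the 16509 genes, and adjusted p-values below come from that fit unless another tool is named.

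Rrm2, the small subunit that carries the radical used in catalysis and is made mainly in S phase, was read at 315, 532, 454 and 329 normalized counts in control organoids under vehicle and at 1009, 949, 902 and 1009 under E2/MPA. The means were 408 ± 104 and 968 ± 52.0 (SD, n = 4), and no library of one treatment reached the range of the other. The log2 fold change, on the log2(value + 1) scale used for every fold change here, was 1.28 with a standard error (SE) of 0.23 and an adjusted p of 0.00315. In cKO organoids Rrm2 was at 412, 441, 245 and 223 under vehicle and at 871, 814, 801 and 539 under E2/MPA, again without overlap. That log2 change was 1.23 (SE 0.23, adjusted p = 0.00685), and the genotypes differed in it by -0.05 (interaction adjusted p = 1.00).

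Rrm1, the large subunit that binds the substrates, went from 901, 798, 914 and 1170.0 normalized counts under vehicle to 1317, 1654, 1639.5 and 1584 under E2/MPA in control organoids. The lowest hormone library lay above the highest vehicle library. Rrm1 rose by 0.72 (log2, SE 0.12, adjusted p = 0.00206), from 946 ± 158 to 1549 ± 157 (SD, n = 4). In cKO organoids Rrm1 read 1002, 829, 804 and 766 under vehicle, then 1247, 1329.7, 1068 and 1145 under E2/MPA. The ranges did not overlap there either, and the rise was 0.50 (SE 0.12, adjusted p = 0.0301). Leaving out M6, M7, M8, M13 or M14 in turn ended this last call, with adjusted p-values of 0.0658 to 0.104. In GENCODE M21 the exons of neither subunit overlap another gene.

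The stretches before the start sites of both subunits, chosen after their values were seen, are shown because they are the S-phase members that rose. They are RefSeq sequences of build GRCm38.p6, given 5′ to 3′ up to the base before the start of the transcript, at chr7:102441495-102441694 (plus strand) for Rrm1 and chr12:24708054-24708253 (plus strand) for Rrm2. Capitals mark the CCAAT box, the letters CCAAT on either strand, which NF-Y binds.
Rrm1: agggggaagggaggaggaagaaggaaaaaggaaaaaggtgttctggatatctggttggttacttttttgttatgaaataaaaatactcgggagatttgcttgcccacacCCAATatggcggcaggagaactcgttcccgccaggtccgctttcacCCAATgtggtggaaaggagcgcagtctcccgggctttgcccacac
Rrm2: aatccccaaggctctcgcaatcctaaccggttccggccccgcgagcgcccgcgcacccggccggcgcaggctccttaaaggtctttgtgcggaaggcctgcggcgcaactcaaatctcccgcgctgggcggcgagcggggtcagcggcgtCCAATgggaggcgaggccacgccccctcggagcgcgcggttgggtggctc
Rrm1 has 2 such boxes in these 200 bases and Rrm2 has 1. Neither stretch holds the E2F or CHR letters described further on.

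**Figure D1:**
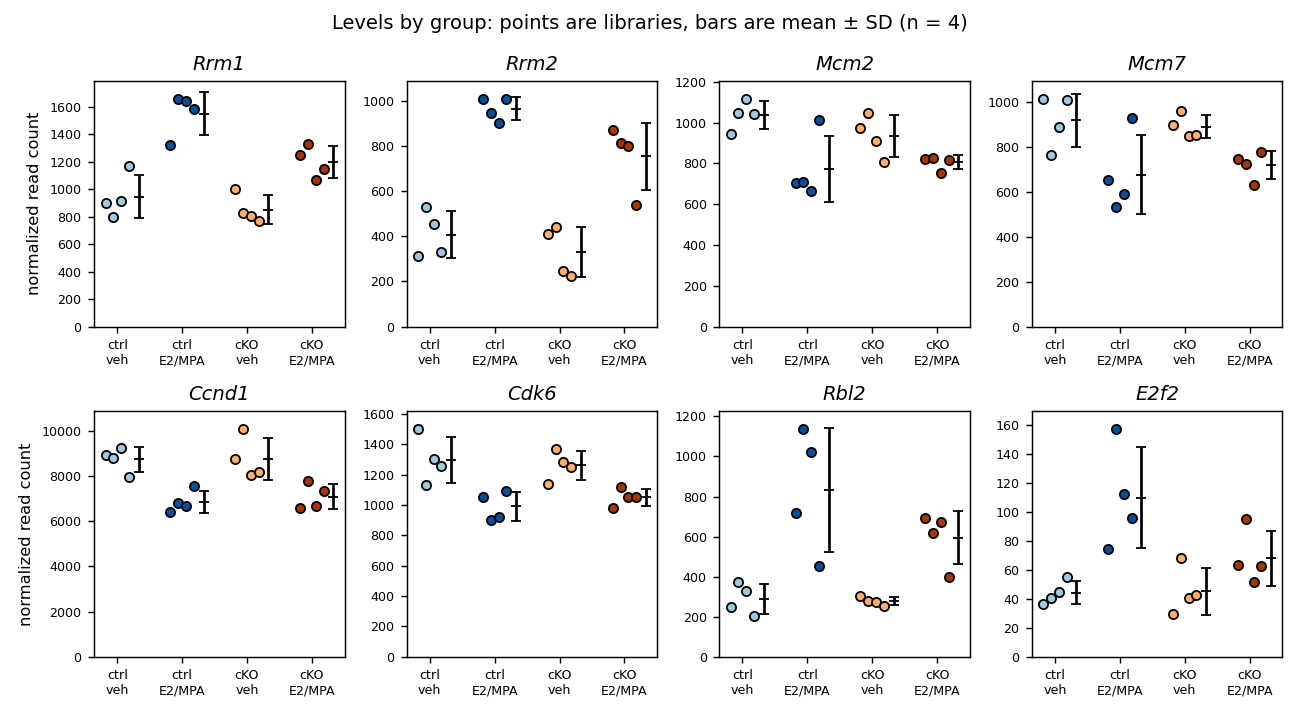
Normalized read counts (y axes, linear from 0) of 8 genes in the 4 groups on the x axis (ctrl, control; veh, vehicle), with each point a library and bars the mean ± SD of 4 libraries. Rrm1, Rrm2 and Rbl2 are higher under E2/MPA in both genotypes, and in the control E2/MPA group 1 library, M12, stands above the other 3 for Mcm2 and Mcm7.

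The MCM helicase genes did not move with ribonucleotide reductase. Mcm2, a subunit of the helicase that opens the replication fork, was at 945, 1049.8, 1115 and 1043 normalized counts in control organoids under vehicle and at 704, 710.0, 666 and 1012 under E2/MPA. Of the hormone libraries, M9, M10 and M11 lay below all 4 vehicle libraries, whereas M12 lay among them. Mcm2 fell by 0.44 (log2, SE 0.12, adjusted p = 0.0267). Without M12 the fall was 0.58 with an adjusted p of 0.000737. Leaving out M3, M4, M9, M10 or M11 in turn ended the call (adjusted p = 0.0545 to 0.0954), as did a fit on the 8 control libraries alone (adjusted p = 0.123).

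Mcm7, another subunit of the helicase, read 1014, 764, 889 and 1012 under vehicle, then 652, 532, 591 and 931 under E2/MPA in control organoids, a log2 fold change of -0.47 (adjusted p = 0.0554). DESeq2 called it with a fall, where 13.2% of all genes were called, and edgeR did not (9.07%). The other 4 subunits had log2 fold changes between -0.41 (Mcm6) and -0.13 (Mcm5), none called. In cKO organoids all 6 subunits had log2 fold changes between -0.31 (Mcm7) and -0.02 (Mcm5), none called, and Mcm2 was at 973, 1047, 908 and 807 under vehicle, then 823, 825, 756 and 819 under E2/MPA. The ranges of Mcm7 did not overlap in cKO organoids, where it was at 848 to 960.1 under vehicle and at 633 to 776 under E2/MPA. Exons of Mcm7 overlap those of Ap4m1 and Cops6 on the opposite strand. Whether reads were counted by strand is stated neither in the labels nor in the processing notes.

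The gap between Rrm2 and the MCM genes was higher in every hormone library than in every vehicle library. Measured as log2(value + 1) of Rrm2 minus the mean of the 6 MCM genes in the same library, it ran from -1.40 to -0.25 over the 8 vehicle libraries and from -0.15 to 1.10 over the 8 hormone libraries. Its mean went from -0.85 ± 0.52 to 0.76 ± 0.46 in control and from -0.96 ± 0.32 to 0.41 ± 0.41 in cKO organoids (SD, n = 4). The lowest hormone libraries were M16 (-0.15) and M12 (0.09), both with high stromal markers, as was the lowest vehicle library, M4 (-1.40); the part of those markers in the gap was not tested. The same gap for Rrm1 ran from 0.17 to 0.63 under vehicle and from 0.74 to 1.91 under E2/MPA. As the values are not corrected for length, the sign of the gap carries no meaning and only its change between libraries does.

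The remaining S-phase members were not called in either genotype. Pcna, the sliding clamp, had log2 fold changes of -0.15 in control (adjusted p = 0.540) and 0.04 in cKO organoids (adjusted p = 0.927), and Tyms, which makes thymidylate, -0.21 and -0.12. E2f1, the factor that turns on S-phase genes, was at -0.19 and 0.09. Ccne1, the cyclin that activates Cdk2 at S-phase entry, was at -0.01 (adjusted p = 0.990) and 0.21 (adjusted p = 0.720). Its relative Ccne2 read 37.2, 44.0, 39.3 and 49.6 normalized counts in control organoids under vehicle, then 44.6, 45.0, 43.2 and 79.2 under E2/MPA, a log2 fold change of 0.27 (adjusted p = 0.557). In cKO organoids Ccne2 read 18, 37.0, 29.4 and 20.9, then 40.4, 55.5, 38.8 and 35.5, a change of 0.71 (adjusted p = 0.135) with overlapping ranges. Over the 13 S-phase genes the medians of the log2 fold changes were -0.19 (control) and -0.02 (cKO), where the medians over all tested genes were -0.00077 and -0.0039.

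Among the G1 genes, the major D-type cyclin and 1 of its kinases fell in control organoids. Ccnd1, which carries growth signals to Cdk4 and Cdk6, was at 8929.8, 8818, 9247 and 7979.9 normalized counts under vehicle and at 6421, 6817, 6683 and 7568 under E2/MPA. The ranges did not overlap, and Ccnd1 fell by 0.35 (log2, SE 0.09, adjusted p = 0.0211). In cKO organoids it was at 8759, 10071, 8038 and 8198 under vehicle and at 6575, 7775, 6677 and 7335 under E2/MPA, also without overlap, with a log2 fold change of -0.30 (adjusted p = 0.0620). Cdk6 went from 1497, 1132, 1299 and 1254 to 1049, 900.0, 921 and 1093 in control organoids, falling by 0.38 (SE 0.09, adjusted p = 0.0160). In cKO organoids Cdk6 read 1138, 1369, 1285 and 1249 and then 982, 1118, 1052 and 1055, a change of -0.26 (adjusted p = 0.128) with no overlap. For neither gene was a difference in hormone effect between the genotypes called (interaction 0.04 for Ccnd1 and 0.12 for Cdk6, adjusted p = 1.00 for both).

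The 2 calls in control organoids were close to the threshold. The Ccnd1 call ended without M1, M3, M9, M10 or M11 (adjusted p = 0.0533 to 0.0643), and the Cdk6 call ended without M1, M10 or M11 (adjusted p = 0.0570 to 0.0627). In a fit on the 8 control libraries alone neither passed (adjusted p = 0.0681 and 0.0948). Exons of both genes overlap a gene on the opposite strand, LTO1 for Ccnd1 and Gm17590 for Cdk6.

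Ccnd3, another D-type cyclin, was at 834, 813, 685 and 692 normalized counts in cKO organoids under vehicle and at 1043, 985, 929 and 953 under E2/MPA. The ranges did not overlap, and the log2 fold change of 0.37 had an adjusted p of 0.0535. Cdk4 was at 2519, 2366, 2469.8 and 2630.2 and then at 2184, 1916, 2038 and 2181 in the same organoids, likewise without overlap (-0.26, adjusted p = 0.0595). In control organoids the changes were 0.18 for Ccnd3 and -0.17 for Cdk4, neither called. Ccnd2 had log2 fold changes of -0.29 in control and -0.40 in cKO organoids (adjusted p = 0.759 and 0.710), and Cdk2, the partner of the E-type cyclins, of 0.09 and 0.15.

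Of the inhibitors, Cdkn1b (p27), which holds cyclin E complexes in check, had changes of 0.19 (adjusted p = 0.478) and 0.15 (adjusted p = 0.639). It was lowest in each group in M4 (809), M8 (862), M12 (830.2) and M16 (866), the libraries with the highest stromal marker mean of their groups. Cdkn1b was called with a rise in both genotypes when the stromal marker mean entered the fit as a covariate. That fit called 24.8% of all genes in control and 18.3% in cKO organoids. Cdkn2c (p18), an inhibitor of Cdk4 and Cdk6, read 71.4, 89.2, 72.0 and 78.4 in control organoids under vehicle, then 113, 97.0, 132 and 136 under E2/MPA. Its ranges did not overlap, and the log2 fold change was 0.61 (adjusted p = 0.124). In all, ranges of 5 of 41 members did not overlap between the control groups, 3 higher and 2 lower under hormone, where the background over all genes was 6.66% and 5.49%. In the cKO groups 3 were higher and 4 lower, with a background of 8.01% and 5.80%.

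**Figure D2:**
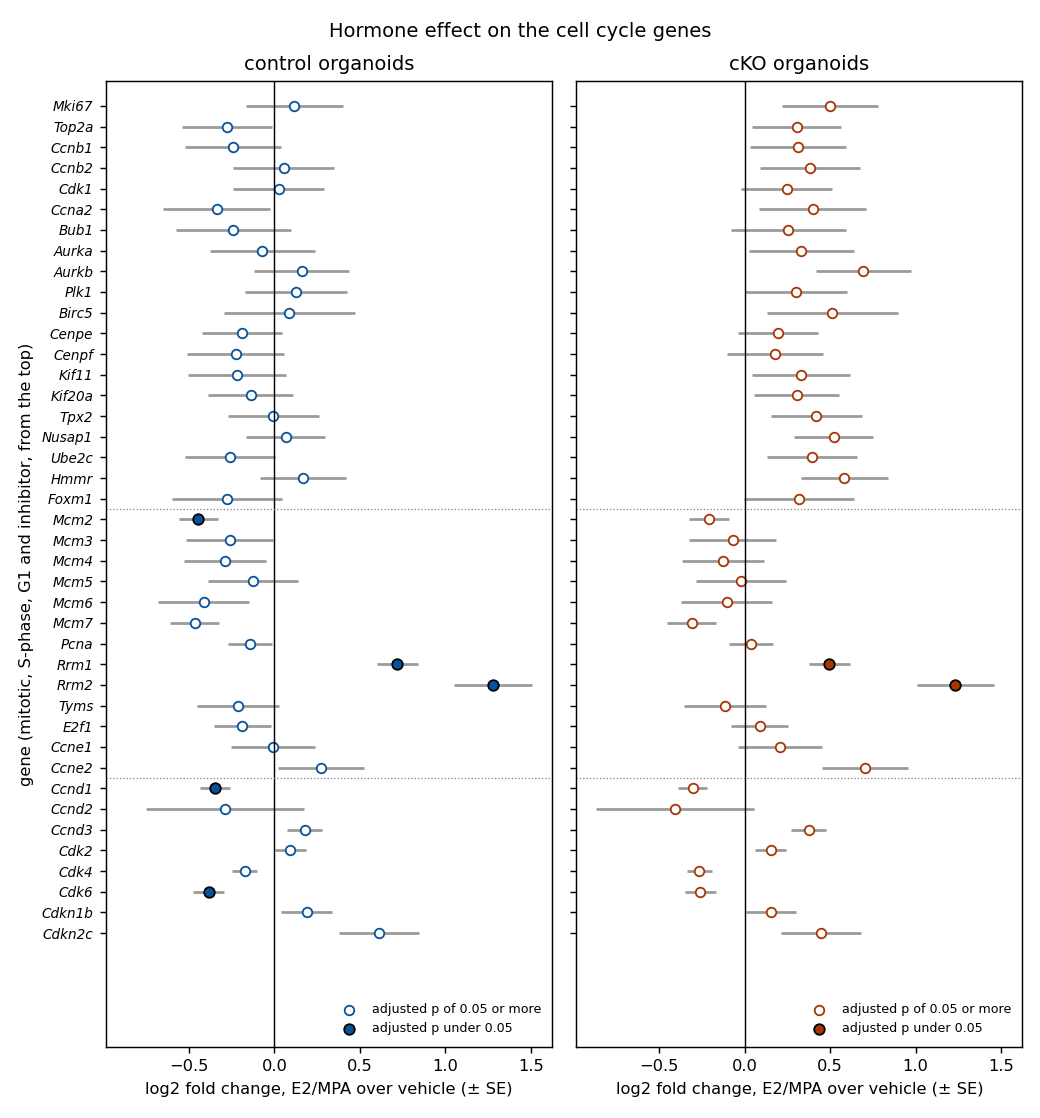
Log2 fold change of E2/MPA over vehicle (x axis, with SE) for each of the 41 genes (y axis, by class) in control and cKO organoids, with filled points where the adjusted p was under 0.05. Rrm1 and Rrm2 stand to the right in both panels, the 6 MCM genes lie left of 0 in both, and all 20 mitotic genes lie right of 0 in cKO organoids without a call.

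None of the 20 mitotic genes was called for the hormone effect in either genotype. Mki67, the proliferation marker Ki-67 that coats mitotic chromosomes, was at 882, 822, 912 and 979.7 normalized counts in control organoids under vehicle and at 1089, 677, 701 and 1731 under E2/MPA. The hormone libraries spread on both sides of the vehicle range, and the log2 fold change was 0.12 (SE 0.28, adjusted p = 0.846). In cKO organoids Mki67 was at 720.3, 756, 611 and 339.6 and then at 692, 1058, 823 and 748, a change of 0.50 (SE 0.28, adjusted p = 0.375). Top2a, which untangles DNA before segregation, had changes of -0.28 in control (adjusted p = 0.568) and 0.30 in cKO organoids (adjusted p = 0.591). Ccnb1, the cyclin that triggers mitosis with Cdk1, had changes of -0.24 (adjusted p = 0.657) and 0.31 (adjusted p = 0.609).

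The members of the class with the largest changes were not called either. In control organoids these were Ccna2, the S and G2 cyclin, at -0.34 (adjusted p = 0.558), Foxm1 at -0.28 and Top2a. In cKO organoids they were Aurkb, the kinase of the chromosomal passenger complex, at 0.69 (adjusted p = 0.189), Hmmr, a spindle protein, at 0.58, and Nusap1, a microtubule-bundling protein, at 0.52. Aurkb was at 116, 158, 82.4 and 72.8 normalized counts in cKO organoids under vehicle and at 177, 182, 133 and 177 under E2/MPA, so the ranges overlapped by M6 and M15 alone. The median log2 fold change of the class was -0.10 in control organoids, with 8 genes above 0, and 0.33 in cKO organoids, with 20 of 20 above 0. No test was made of the class as a whole, because its members rise and drop together from library to library and are not replicates.

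Some libraries were the highest or lowest of their group for most of the mitotic genes. M4 was the highest of its group for 15 of 20 mitotic and 9 of 13 S-phase genes, M6 for 18 of 20 mitotic genes and M14 for 17 of 20, and M15 was the lowest for 14 of 20. M12 was the highest of its group for 20 of 20 mitotic genes, for 12 of 13 S-phase genes and for 6 of the 8 others. It also had the highest stromal and macrophage marker means of all libraries, and the part of those cells in its values was not tested. Without M12 the median mitotic change in control organoids was -0.38 with 20 of 20 genes below 0, and the S-phase median was -0.42. Calls then numbered 9 of 41: Rrm1 and Rrm2 rose, and Mcm2, Mcm6, Mcm7, Pcna, Ccna2, Ccnd1 and Cdk6 fell, where 7.64% of all genes rose and 5.87% fell. Ccna2 was the 1 mitotic gene among them, with a fall of 0.72 (adjusted p = 0.0400). Without M4, M8, M12 and M16, 1 library of each group, 2 members rose and 5 fell in control organoids (Ccna2 and Pcna no longer passed), with 7.68% and 5.71% of all genes, and the mitotic median was -0.29.

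In the cKO organoids under vehicle, M8 was the lowest of its group for 19 of 20 mitotic genes and 6 of 13 S-phase genes. Mki67 read 339.6 there against 611 to 756 in M5, M6 and M7. M8 had a high stromal marker mean (9.88) and the lowest macrophage marker mean of all libraries (6.46), and the part of either was not tested. Without M8 the mitotic median of the hormone effect in cKO organoids was 0.20 with 19 of 20 above 0, and 1 member, Rrm2, rose, where 1.92% of all genes did. Of the 4 libraries with the highest stromal markers, M12 and M4 were the highest of their group for most mitotic genes, M8 was the lowest, and M16 was neither.

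**Figure D3:**
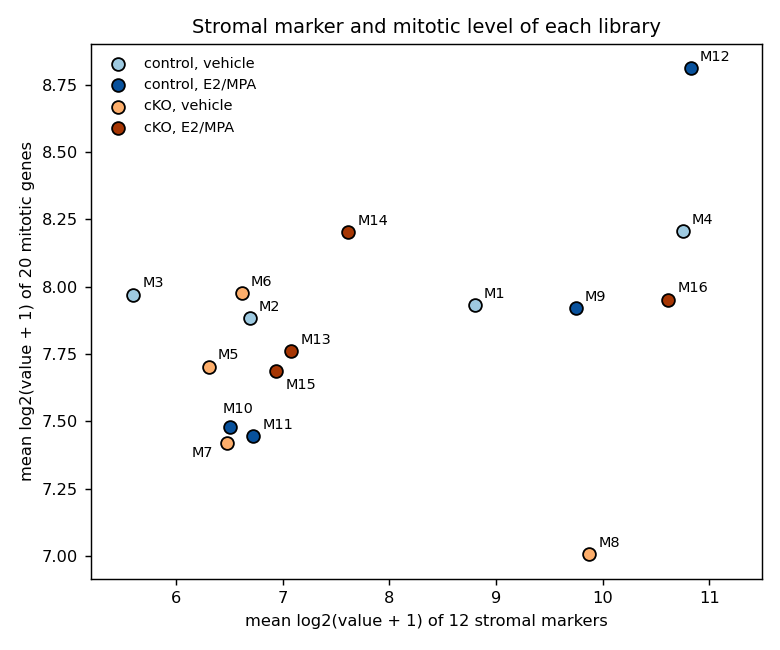
Mean log2(value + 1) of 20 mitotic genes (y axis) against that of 12 stromal markers (x axis) in each of the 16 libraries, coloured by group. The 4 libraries with the highest stromal means, namely M4, M8, M12 and M16, include both the highest (M12, 8.81) and the lowest (M8, 7.01) mitotic mean.

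S-phase and mitotic genes were then compared within each library. The mean log2(value + 1) of the 13 S-phase genes ran from 8.30 (M8) to 9.27 (M12) and that of the 20 mitotic genes from 7.01 (M8) to 8.81 (M12). Libraries high in one class were high in the other, and the mitotic mean covered the wider range. The difference, S-phase minus mitotic, was 0.70, 0.77, 0.66 and 0.79 in M1 to M4, and 0.78, 0.74, 0.95 and 1.30 in M5 to M8. It was 0.74, 0.98, 0.99 and 0.46 in M9 to M12, and 0.88, 0.56, 0.71 and 0.68 in M13 to M16. The 4 groups overlapped. The control vehicle libraries lay closest together, and M8 and M12 formed the ends of the range.

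The group means of this difference were 0.73 ± 0.06 and 0.94 ± 0.26 under vehicle (control, then cKO) and 0.79 ± 0.25 and 0.71 ± 0.13 under E2/MPA (SD, n = 4). E2/MPA changed the difference by 0.06 in control and by -0.23 in cKO organoids, where the SD between libraries within groups was 0.193. Without M12 the first was 0.17, and without M8 the second was -0.12. The genotypes differed by 0.21 under vehicle and by -0.08 under E2/MPA. With all libraries, the change in cKO organoids and the difference under vehicle were larger than that SD and the other 2 were smaller. Without M8 the difference under vehicle was 0.09, and it and the change in cKO organoids were then smaller than that SD. No test was made of these means. The S-phase mean holds Rrm1 and Rrm2, and the mean of its 6 MCM genes alone changed by -0.33 in control organoids (-0.58 without M12) and by -0.14 in cKO organoids (-0.21 without M8).

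**Figure D4:**
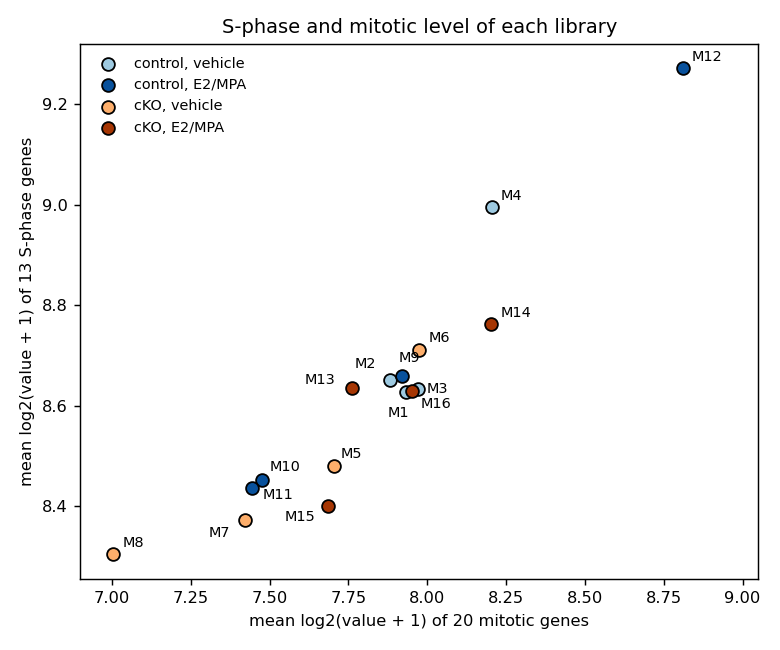
Mean log2(value + 1) of 13 S-phase genes (y axis) against that of 20 mitotic genes (x axis) in each of the 16 libraries, coloured by group. The libraries lie along 1 band from M8 (7.01 and 8.30) to M12 (8.81 and 9.27), with the 4 groups intermixed.

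No member was called between the genotypes. Under vehicle, 39 of 41 members had a log2 fold change of cKO over control below 0, including 20 of 20 mitotic genes with a median of -0.43 and 13 of 13 S-phase genes with a median of -0.17; the median over all genes was 0.0010. The smallest adjusted p among members was 0.801. Of the members, 6 had an unadjusted p under 0.05, and 984 of all 16509 genes did. No gene of the table was called by limma (0.00%) or edgeR (0.00%), while DESeq2 called 16 genes (0.0969%). Both edgeR and DESeq2 called 0 of the 41 members.

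The largest differences were those of Ccnd2, Kif11 and Ccne2, followed by mitotic genes. Kif11, the motor that pushes spindle poles apart, was at 200.4, 201, 263 and 252 normalized counts in control and at 110.0, 189, 134 and 97.0 in cKO organoids. Every cKO library lay below every control library, and the log2 fold change was -0.82 (SE 0.29, adjusted p = 0.801). Cenpe, a kinetochore motor, had a change of -0.69, Mki67 of -0.63 and Top2a of -0.56. Ranges of 7 members did not overlap, all lower in cKO: Mki67, Ccna2, Cenpe, Cenpf, Kif11, Nusap1 and Ccne2. The background of that count was 1.37% of all genes. Among S-phase genes Ccne2 had a change of -0.72, Mcm6 of -0.52 and E2f1 of -0.42 (adjusted p = 0.801 to 0.835). Without M8 the mitotic median was -0.30 and the S-phase median -0.15. Without M4, M8, M12 and M16 they were -0.22, with 16 of 20 below 0, and -0.046.

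Under E2/MPA the mitotic genes showed no common direction between the genotypes: 10 of 20 lay on each side of 0, with a median of -0.0017, and the S-phase median was -0.07 with 4 of 13 above 0. The limma fit called 1 gene of the whole table (0.00606%), which was not a member. DESeq2 called 185 genes (1.12%) and no member. In the limma fit 2 members and 1794 genes had an unadjusted p under 0.05. Rrm2 was the 1 member without overlap, at 902 to 1009 in control and 539 to 871 in cKO organoids (-0.38, adjusted p = 0.586), against a background of 2.35% of genes lower. Rrm1 had a change of -0.37 (adjusted p = 0.277), and it was called with a fall in a fit with library weights, which called 3.62% of all genes. The direction of the mitotic median rested on M12: without that library it was 0.30, with 19 of 20 genes above 0 and none called.

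Ccnd2, the D-type cyclin that hormone and growth signals control in gonads and other tissues, had the largest genotype difference of all members under either treatment. It was at 344, 593, 471 and 781 normalized counts in control and at 120.1, 333, 302 and 504 in cKO organoids under vehicle. Under E2/MPA it was at 331, 408, 359 and 698 and at 88.0, 240.4, 231 and 402. The log2 fold changes were -0.90 (SE 0.46, adjusted p = 0.835) and -1.02 (SE 0.46, adjusted p = 0.438), and the ranges overlapped. Its highest value in every group was that of M4, M8, M12 or M16, the libraries with the highest stromal markers, and the part of those markers in the difference was not tested. Without those 4 libraries the groups did not overlap under either treatment, and Ccnd2 was still not called.

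No member was called for a difference in hormone effect between the genotypes. Interaction estimates, the hormone effect in cKO minus that in control organoids, were above 0 for 20 of 20 mitotic genes (median 0.43) and 11 of 13 S-phase genes (median 0.18), and every adjusted p was 1.00. The largest were Ccna2 at 0.74, Ube2c, a ubiquitin-conjugating enzyme that works with the anaphase-promoting complex, at 0.65, and Foxm1 at 0.60. No gene of the table was called (0.00%); 309 genes and 0 members had an unadjusted p under 0.05, and edgeR and DESeq2 called 0 members. The estimate uses the cKO vehicle libraries, among them M8, and the control hormone libraries, among them M12. The mitotic median was 0.73 without M12, 0.28 without M8 (18 of 20 above 0) and 0.52 without M4, M8, M12 and M16, with no member called in any of these. Without M12, 18 of 41 members, 13 of them mitotic, and 694 of all genes had an unadjusted p under 0.05, and with library weights 7 members and 854 genes did.

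**Figure D5:**
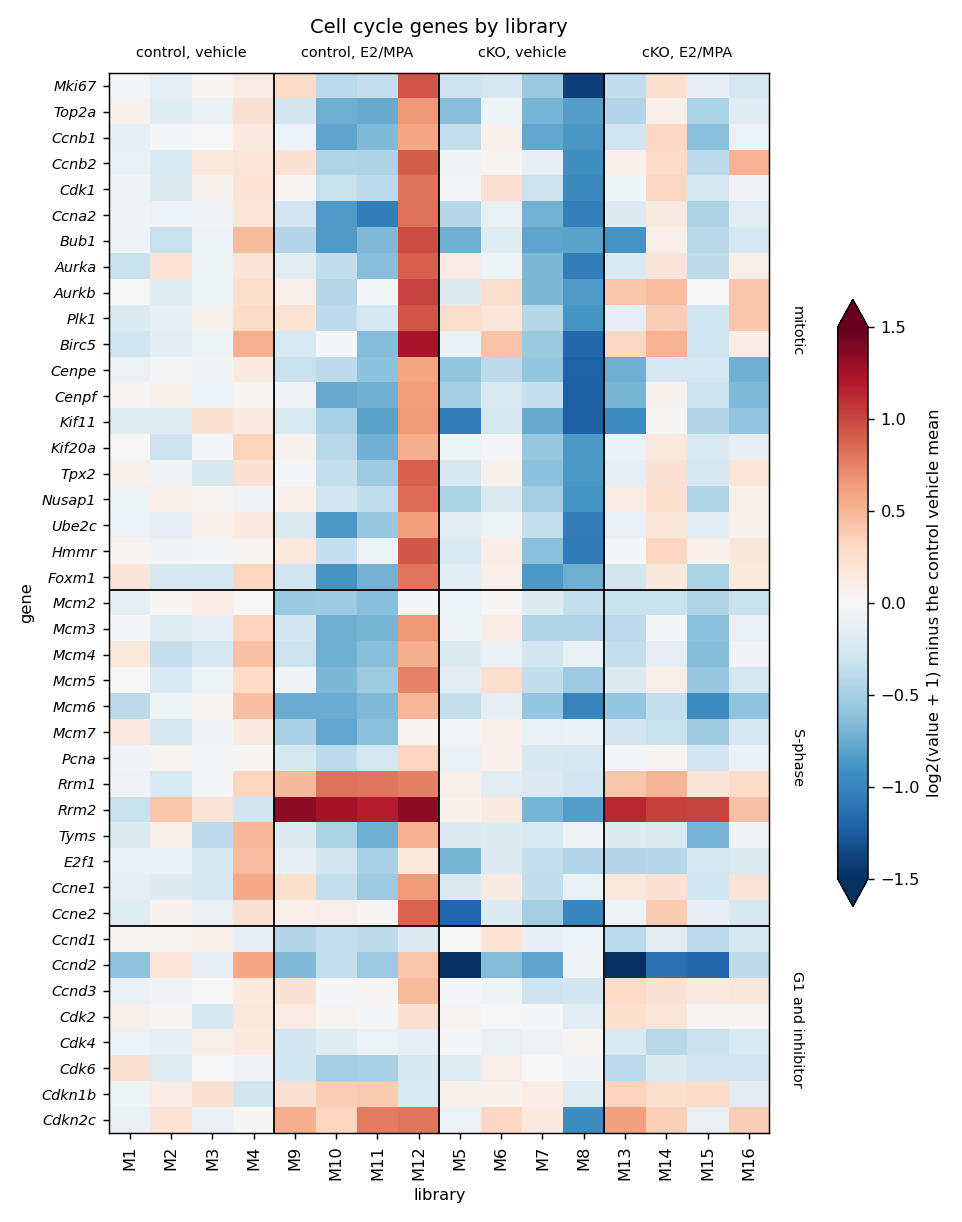
Level of each of the 41 genes (y axis, by class) in each of the 16 libraries (x axis, by group), as log2(value + 1) minus the gene's mean in the control vehicle group. M12 is high and M8 low across nearly all mitotic genes, while the Rrm1 and Rrm2 rows split by treatment.

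All members with a promoter sequence at hand were searched for known promoter letters, whatever their levels. RefSeq windows of 300 bases around transcript starts (250 before and 50 after, build GRCm38.p6) were at hand for 32 members, 35 windows in all. Both strands were searched for the cell cycle homology region (CHR, TTCGAA or TTTGAA), which MuvB binds, for the CCAAT box and for an E2F site (TTTCCCGC, TTTCGCGC, TTTGCCGC or TTTGGCGC). Of 15 mitotic windows, 11 (73.3%) held both a CHR and a CCAAT box, against 7.52% of 32851 windows of all genes and 2 of 12 S-phase windows. The E2F letters were in 4 of 12 S-phase windows and 1 of 15 mitotic windows, against 2.26% of all. Of the 8 windows of the G1 class, 0 held the CHR letters and 4 the CCAAT box, against 19.2% and 37.4% of all windows. A match is a description of these letters and not evidence of binding. The classes were named by function and not by levels, so these shares describe the lists. Whether the letters have a part in the levels of any library was not tested.

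The 3 mitotic genes that come first in the member list with both motifs before the start were Mki67 (chr7:135716380-135716579, minus strand), Top2a (chr11:99024190-99024389, minus strand) and Ccnb2 (chr9:70421555-70421754, minus strand). They are shown by that order alone, and their levels had no part in the choice. The 200 bases before the start are given 5′ to 3′ on the gene's strand, with CHR and CCAAT letters in capitals (TTCAAA and ATTGG are these words on the other strand).
Mki67: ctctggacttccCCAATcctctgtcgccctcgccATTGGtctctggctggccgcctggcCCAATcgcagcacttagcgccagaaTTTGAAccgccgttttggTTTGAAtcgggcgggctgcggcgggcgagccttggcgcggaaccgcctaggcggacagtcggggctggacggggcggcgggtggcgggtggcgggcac
Top2a: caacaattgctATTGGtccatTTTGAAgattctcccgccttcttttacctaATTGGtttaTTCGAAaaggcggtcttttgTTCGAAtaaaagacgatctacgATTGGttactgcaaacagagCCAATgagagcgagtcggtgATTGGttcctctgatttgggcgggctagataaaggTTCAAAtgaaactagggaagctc
Ccnb2: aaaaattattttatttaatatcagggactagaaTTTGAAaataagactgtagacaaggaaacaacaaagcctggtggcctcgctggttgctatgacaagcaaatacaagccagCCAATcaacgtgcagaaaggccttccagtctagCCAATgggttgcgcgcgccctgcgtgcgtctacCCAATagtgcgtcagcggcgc
Top2a holds 4 CHR words and 5 CCAAT boxes in this stretch. In these 3 genes, as in the 11 windows counted, neither the number nor the place of the words was set against the size of any change.

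The first 3 members with the E2F letters before the start were Cdk1 (chr10:69352913-69353112, minus strand), the mitotic kinase, and the helicase genes Mcm5 (chr8:75109309-75109508, plus strand) and Mcm6 (chr1:128359706-128359905, minus strand). Capitals mark the E2F words, the CCAAT boxes and the CHR words, and overlapping words run into one another. Mcm3, which stands before Mcm5 in the member list and is among the members counted with the E2F letters, holds them only after its start and is not shown.
Cdk1: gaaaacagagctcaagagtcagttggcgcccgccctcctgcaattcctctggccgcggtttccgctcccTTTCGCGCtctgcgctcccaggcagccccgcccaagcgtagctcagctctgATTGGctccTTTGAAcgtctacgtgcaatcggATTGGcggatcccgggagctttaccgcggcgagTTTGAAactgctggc
Mcm5: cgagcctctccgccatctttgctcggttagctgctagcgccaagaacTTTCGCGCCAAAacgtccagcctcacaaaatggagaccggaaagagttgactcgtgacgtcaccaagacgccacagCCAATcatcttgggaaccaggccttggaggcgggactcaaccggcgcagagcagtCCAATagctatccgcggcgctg
Mcm6: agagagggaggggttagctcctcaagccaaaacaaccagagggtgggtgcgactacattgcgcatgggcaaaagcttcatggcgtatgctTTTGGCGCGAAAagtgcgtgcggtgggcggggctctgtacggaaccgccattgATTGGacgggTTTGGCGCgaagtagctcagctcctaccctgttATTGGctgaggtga
Cdk1 holds all 3 kinds of word, and Mcm5 and Mcm6 hold E2F words and CCAAT boxes without a CHR. Bases 21 to 40 after the starts of Mcm5 and Mcm6 were not found unbroken in any transcript that GENCODE M21 gives these genes. The same held for Aurka and Kif11, whose windows are among the mitotic windows counted with both a CHR and a CCAAT box. The windows of these genes may therefore not be the main promoters, though a splice junction within those bases would give the same outcome.

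Around the members, 91 further cell cycle genes in 4 lists were measured: 31 for licensing and replication, 40 for mitosis and its checkpoint, 14 for E2F, RB, DREAM and MuvB factors, and 6 other CDK inhibitors. The lists were chosen with earlier results of these data known. In control organoids 3 of the 91 rose and 1 fell with E2/MPA, and in cKO organoids 1 rose and 1 fell, which is no more than the shares of all genes given above. None of the 31 replication genes or 40 mitosis genes was called in any comparison. The median log2 fold change over the 91 genes was -0.07 in control organoids (33 above 0) and 0.15 in cKO organoids (67 above 0), and it was -0.20 between the genotypes under vehicle (15 above 0).

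The called genes of these lists are regulators of the G1 decision. Rbl2, the pocket protein p130 of the DREAM complex, was at 250.3, 371, 327 and 206 normalized counts in control organoids under vehicle and at 716, 1135, 1022 and 453 under E2/MPA. All hormone libraries lay above all vehicle libraries, with M12 the lowest of them, and Rbl2 rose by 1.47 (log2, SE 0.26, adjusted p = 0.00312). In cKO organoids it was at 304, 279, 276 and 255 and then at 692, 617, 672 and 399, a rise of 1.06 (adjusted p = 0.0337). Leaving out any 1 of M5 to M8 and M13 to M15 ended this second call (adjusted p = 0.0657 to 0.104). The lowest values under hormone were those of M12 and M16, which have high stromal markers.

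E2f2, an activating E2F, rose in control organoids from 36.2, 40.6, 45.0 and 55.2 normalized counts to 74.4, 157, 112 and 95.7, without overlap (1.26, SE 0.27, adjusted p = 0.0106). In cKO organoids it was at 29.2, 68.0, 40.7 and 42.7 and then at 63.1, 95.1, 51.3 and 62.4, with overlap (0.61, adjusted p = 0.250), and the difference between these effects was not called (-0.65, adjusted p = 1.00). Cdkn2d (p19), an inhibitor of Cdk4 and Cdk6, rose in control organoids from 57.7, 94.8, 101 and 88.0 to 153, 169, 139 and 158 (0.88, adjusted p = 0.0116). In cKO organoids its change was 0.65 (adjusted p = 0.0774), also without overlap.

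Cdkn2b (p15), an inhibitor of Cdk4 and Cdk6 that TGF-beta is known to induce in epithelial cells, fell in both genotypes. It went from 793, 721, 731 and 1048 normalized counts to 522, 506, 541 and 620.2 in control organoids (-0.58, SE 0.13, adjusted p = 0.0106). In cKO organoids it went from 923, 743, 888 and 978 to 612, 504, 540.3 and 653 (-0.61, SE 0.13, adjusted p = 0.0125). The ranges did not overlap in either genotype. Between the genotypes it differed by 0.11 under vehicle and 0.07 under E2/MPA (adjusted p = 0.941 and 0.897).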

How the data were processed

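RNA came from organoids lysed in Trizol and went through TruSeq library preparation and sequencing on a NovaSeq instrument, per the labels' protocols. HISAT2, featureCounts, DESeq2 and GRCm39 are listed in the submitters' processing notes with no version. The authors deposited 1 table of a signal per gene, its reads over the library's size factor, and all values (100%) times that factor were whole reads within 0.01. Each gene has at least 17 reads in all. Symbols came from GENCODE M21 for 22484 genes, while 822 without a symbol took 1.83% of reads.

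A gene was tested if 4 or more libraries had a value of 10 or more, which left out 6797. Values were fitted as log2(value + 1), a scale that understates changes of low genes, with limma 3.58.1 (R 4.3.3), a mean per group and a variance trend, two-sided. edgeR 4.0.16 and DESeq2 1.42.0 were run on the recovered reads. The fit was tested on simulated data. Class scores are means over members and have no test.

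The members and lists were chosen with earlier results of these data known. Named genes are the called members, the 3 largest changes in each class and comparison, Mki67, Top2a, Ccnb1, Mcm2, Pcna, Rrm2, Ccne1, Ccnd1 and Cdkn1b, and up to 10 called genes of the further lists. Others named, and the Rrm1 and Rrm2 stretches, were chosen after their values were seen. There were 15 alternative settings besides leaving out each of 16 libraries. Exons of 10 of 41 members overlap a gene on the opposite strand in GENCODE M21: Ccna2, Ccnd1, Ccnd3, Ccne2, Cdk2, Cdk4, Cdk6, Kif20a, Mcm7 and Nusap1.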

Additional observations from a re-analysis of the deposited data

Results flagged for a closer look

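In each group of 4 libraries, the gap of the highest or lowest library to its nearest neighbour was set against the range of the group, with the 95% critical value of Dixon's test. Of 180 groups examined, 14 passed, where chance gives about 1 in 20.

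M12 stood above the other control E2/MPA libraries in 6 of them, at 268 normalized counts for Bub1, 389 for Cenpe, 1012 for Mcm2, 1085 for Mcm6, 962 for Pcna and 79.2 for Ccne2. M4 stood above the other control vehicle libraries at 294 for Ccna2, 246 for E2f1 and 235 for Ccne1, and its S-phase mean of 9.00 on the log2(value + 1) scale did so too. M6 stood above the other cKO vehicle libraries at 119 for Bub1. M15 stood below the other cKO E2/MPA libraries at 133 for Aurkb, 756 for Mcm2 and 129 for Ccne1. The genes vary together, so these cases are not independent of one another.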

How the results depend on the processing

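Of the calls named, those of Rrm2 in both genotypes, of Rrm1, Rbl2 and E2f2 in control organoids and of Cdkn2b in cKO organoids held under all 31 alternatives. The calls of Cdkn2b (adjusted p = 0.0590) and Cdkn2d (adjusted p just over 0.05) in control organoids ended in a fit on the groups compared alone, for which the interaction has no value. The 5 members called for the hormone effect in control organoids (8.9% of all genes called) became 2 in that fit (2.93%). They became 6, with Mcm7 falling, with a mean of at least 50 required (11.7%), upper-quartile rescaling (9.26%) or quantile normalization (9.79%). The same 6 were called with DESeq2 (13.2%) or library weights (15.4%). The count was 7, Mcm7 among them, with the stromal mean as a covariate (24.8%) or without M4, M8, M12 and M16 (13.4%). Leaving out 1 library gave 2 to 9. There were 2 without M10 (4.6%) or M11 (4.73%), 3 without M1 (4.86%), M3 (7.69%) or M9 (6.77%), and 9 without M12 (13.5%). In cKO organoids 2 members were called, with 4.19% of all genes. They became 4 with a mean of at least 50 required (5.77%), upper-quartile rescaling (4.35%) or quantile normalization (3.96%). They became 4 without M4, M8, M12 and M16 (5.81%), 5 with DESeq2 (7.6%) or library weights (10.2%). With the stromal mean as a covariate they became 8 (18.3%). Leaving out 1 library gave 1 to 4. There was 1 without M6 (3.49%), M7 (2.34%), M8 (2.75%), M13 (2.19%) or M14 (2.23%), and there were 4 without M4 (4.79%). Library weights called 1 member, Rrm1, between the genotypes under E2/MPA, with 3.62% of all genes. The change in the S-phase minus mitotic difference ran over the alternatives from -0.0046 to 0.19 for hormone in control, from -0.30 to -0.11 for hormone in cKO, from 0.09 to 0.28 for genotype under vehicle, from -0.19 to 0.0051 under E2/MPA and from -0.41 to -0.18 for the interaction, each within 0.193, the SD between libraries, of its reported value. Quantile normalization changed the calls of all genes in control organoids from 890 rising and 579 falling to 783 and 833, and upper-quartile rescaling to 814 and 714; in cKO organoids 447 and 245 became 357 and 296, and 374 and 344.

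The labels number the libraries from 1 to 16 and give no number to libraries of different groups in common. A replicate block that joined libraries 8 numbers apart, a pairing no label states, called 8 members in control and 9 in cKO organoids (block correlation 0.50), where 27.1% and 18.8% of all genes were called. Beyond the members called without it, these were Mcm7, Cdk4 and Cdkn2c in control and Aurkb, Ccne2, Ccnd1, Ccnd3, Cdk4, Cdk6 and Mcm7 in cKO organoids. Of 2768 alternative values of named genes, 2702 stayed on their side of the threshold, 30 lost a call, 36 gained one and 0 reversed a call. Among the 2702, 72 changed sign, each without a call in either fit. Counting error is relatively largest for Ccne2 and Cdkn2c, the members with the lowest mean values, and whether depth limits the calls was not tested.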
